A study of Mus musculus with 3 samples.

Results

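The nuclear-encoded subunits of the mitochondrial respiratory chain and ATP synthase were followed in 3 sorted populations of the aorta-gonad-mesonephros region (AGM). Members were protein-coding genes outside the mitochondrial genome whose symbol follows the naming pattern of the subunits (Nduf, Sdh, Uqcr, Cox4 to Cox8 and Atp5), and 82 of the 47069 rows of the table fitted it. They comprised 36 genes of complex I, 4 of complex II, 8 of complex III, 17 of complex IV and 17 of complex V. The pattern goes by name: Ndufa4 is counted under complex I although its protein is now placed in complex IV, Atp5s and Atp5sl encode relatives of a coupling factor rather than core subunits of ATP synthase, and the subunit genes Cyc1 and Ndufab1 are left out.

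Bulk RNA-seq was made from wild-type C57BL/6J embryos at embryonic day 11 (E11). Embryos of 1 litter were combined, and cells that lacked CD31, CD45 and cKit were sorted by NG2, the proteoglycan encoded by Cspg4, and by the receptor PDGFRβ. Cells with both markers (double-positive, DP) are labelled vSMCs, vascular smooth muscle cells, those with PDGFRβ but no NG2 (PDGFRβ-single, PDGFRβ-S) sub-vSMCs, and those with neither (double-negative, DN) stroma. Each population gave 1 library, so no difference below has a replicate check, no p-value is given, and intervals cover counting error only. How many cells went into a library was not stated.

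The respiratory chain passes electrons from nutrients to oxygen at the inner mitochondrial membrane. Complex I takes electrons from NADH and complex II from succinate, complex III hands them to cytochrome c, and complex IV reduces oxygen. The protons moved by complexes I, III and IV drive ATP synthase, complex V, whose F1 head makes ATP while its membrane part turns in the proton flow. All complexes but complex II mix subunits encoded in the nucleus with subunits encoded in the mitochondrial genome. The nuclear subunits include large catalytic or scaffold proteins and many small accessory proteins with a single membrane span.

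Reads were recovered from the deposited TPM (the share of a gene in all reads, normalized for gene length) as described under processing, and the DP library held 9325656 reads over all genes, the PDGFRβ-S library 8256153 and the DN library 10055558. Of the TPM, 10.5% (DP), 25.5% (PDGFRβ-S) and 24.4% (DN) lay on the mitochondrial genome, and 56.5%, 43.4% and 46.3% lay on nuclear protein-coding genes in the same order of libraries. The 9 smooth muscle and mural markers summed to 7845 TPM in DP, 252 TPM in PDGFRβ-S and 130 TPM in DN, so the label of DP cells is matched by its markers, with Acta2 at 6256 TPM in DP, 148 TPM in PDGFRβ-S and 84.1 TPM in DN. Cspg4 read 10.5 TPM in DP, 0.485 TPM in PDGFRβ-S and 1.31 TPM in DN, and Pdgfrb read 35.1 TPM, 14.3 TPM and 7.32 TPM in these libraries. Markers of other cells also differed. The 8 erythroid markers summed to 1009 TPM in DP, 16909 TPM in PDGFRβ-S and 16658 TPM in DN. Those of skeletal muscle (8 genes) summed to 1997 TPM in DP, nearly all from Actc1, to 22.3 TPM in PDGFRβ-S and to 424 TPM in DN, with Myog at 0 outside DN. Markers of sympathetic neuroblasts (8 genes) summed to 13.1 TPM in DP, 3.81 TPM in PDGFRβ-S and 300 TPM in DN. Endothelial markers (6 genes), blood markers (6 genes) and epithelial markers (6 genes) summed to 12.05, 3.53 and 267 TPM in DP, to 1.70, 4.48 and 27.8 TPM in PDGFRβ-S and to 1.23, 5.61 and 50.4 TPM in DN, with Cdh5 and Ptprc at 0 in all 3 libraries. The part of these cells in the subunit levels was not tested, and in sorted bulk samples a change in RNA per cell and a change in the mix of cells cannot be told apart.

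Start regions are shown first, because the subunit genes share no chromosome or cluster and their promoters are the sequence they could have in common. A RefSeq start window, 250 bases before to 50 bases after the start on GRCm38.p6, was matched by symbol for 65 of the 82 members (70 windows). The stretch from 200 bases before to 30 bases after the start is printed for 2 members with high (Atp5b, Uqcrc1) and 2 with low (Cox7b, Cox7a2) ratios of DP to DN, and for Atp5h and Uqcrh, whose stretch holds the ETS motif searched and whose log2 ratios were 0.55 and -0.53. They lie at chr10:128083107-128083336 on the plus strand (Atp5b), chr9:108936448-108936677 on the plus strand (Uqcrc1), chrX:106015500-106015729 on the plus strand (Cox7b), chr9:79759824-79760053 on the minus strand (Cox7a2), chr11:115419890-115420119 on the minus strand (Atp5h) and chr4:116075041-116075270 on the minus strand (Uqcrh). Capitals mark matches to the motif.
Atp5b: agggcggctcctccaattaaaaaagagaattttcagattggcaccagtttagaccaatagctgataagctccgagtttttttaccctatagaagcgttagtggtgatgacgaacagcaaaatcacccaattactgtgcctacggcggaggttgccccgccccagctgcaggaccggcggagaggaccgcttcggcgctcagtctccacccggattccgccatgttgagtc
Uqcrc1: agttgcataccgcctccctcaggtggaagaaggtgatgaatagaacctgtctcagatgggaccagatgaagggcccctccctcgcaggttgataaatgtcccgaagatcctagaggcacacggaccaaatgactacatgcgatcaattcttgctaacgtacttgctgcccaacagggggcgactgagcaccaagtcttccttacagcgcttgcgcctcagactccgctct
Cox7b: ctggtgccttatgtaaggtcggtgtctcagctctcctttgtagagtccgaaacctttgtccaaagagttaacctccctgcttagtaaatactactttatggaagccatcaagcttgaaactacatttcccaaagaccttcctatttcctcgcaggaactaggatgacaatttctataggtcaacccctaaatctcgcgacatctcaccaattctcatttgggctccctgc
Cox7a2: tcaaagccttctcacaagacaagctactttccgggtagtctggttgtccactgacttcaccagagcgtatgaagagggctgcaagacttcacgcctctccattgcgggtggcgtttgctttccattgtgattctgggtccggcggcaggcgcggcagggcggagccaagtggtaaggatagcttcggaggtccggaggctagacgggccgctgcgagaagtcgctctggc
Atp5h: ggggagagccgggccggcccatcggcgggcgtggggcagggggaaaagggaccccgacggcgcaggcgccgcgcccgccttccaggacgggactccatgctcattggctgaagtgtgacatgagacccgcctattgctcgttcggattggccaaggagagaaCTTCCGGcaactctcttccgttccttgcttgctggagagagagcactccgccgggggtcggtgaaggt
Uqcrh: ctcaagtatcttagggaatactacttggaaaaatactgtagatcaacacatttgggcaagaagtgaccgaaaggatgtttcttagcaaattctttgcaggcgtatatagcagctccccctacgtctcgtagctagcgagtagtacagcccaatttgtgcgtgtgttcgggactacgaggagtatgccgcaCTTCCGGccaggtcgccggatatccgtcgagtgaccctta

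The motif was the ETS core CCGGAAG, searched on both strands. It is the kind of site bound by GABP, known as an activator of nuclear genes for respiratory subunits. The ETS core was in 16 of the 70 member windows (22.9%), against 21.3% of those of other expressed nuclear protein-coding genes and 8.86% of all windows. In Atp5h and in Uqcrh the match lies on the strand opposite to the gene, shortly before the start. The ratios of members with and without the letters overlapped: the median log2 ratio of DP to DN was 0.20 over the 16 expressed members with the ETS core (-0.53 to 0.55) and 0.07 over the 45 without it (-1.002 to 1.83). A match is a description of letters and not a bound site.

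In all, 74 of the 82 members had a mean of at least 10 TPM over the 3 libraries, namely all of complexes I, II and III, 10 of 17 genes of complex IV and 16 of 17 genes of complex V. Ratios below were taken over these 74, as log2 of (TPM + 1), beside 5963 nuclear protein-coding genes that met the same minimum. The reads of all members made up 1.73% of nuclear protein-coding reads in DP (95% Poisson interval 1.72 to 1.74), against 2.08% (2.07 to 2.09) of PDGFRβ-S and 1.62% (1.61 to 1.63) of DN reads. In TPM the sums were 16825 (DP), 18807 (PDGFRβ-S) and 16076 (DN), within 1.5-fold of each other. As a share of nuclear protein-coding TPM they were 2.98% (DP), 4.33% (PDGFRβ-S) and 3.47% (DN), so that DP was above DN in reads and in TPM but below DN on this scale. Single subunits differed more, and in opposite directions.

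**Figure D1:**
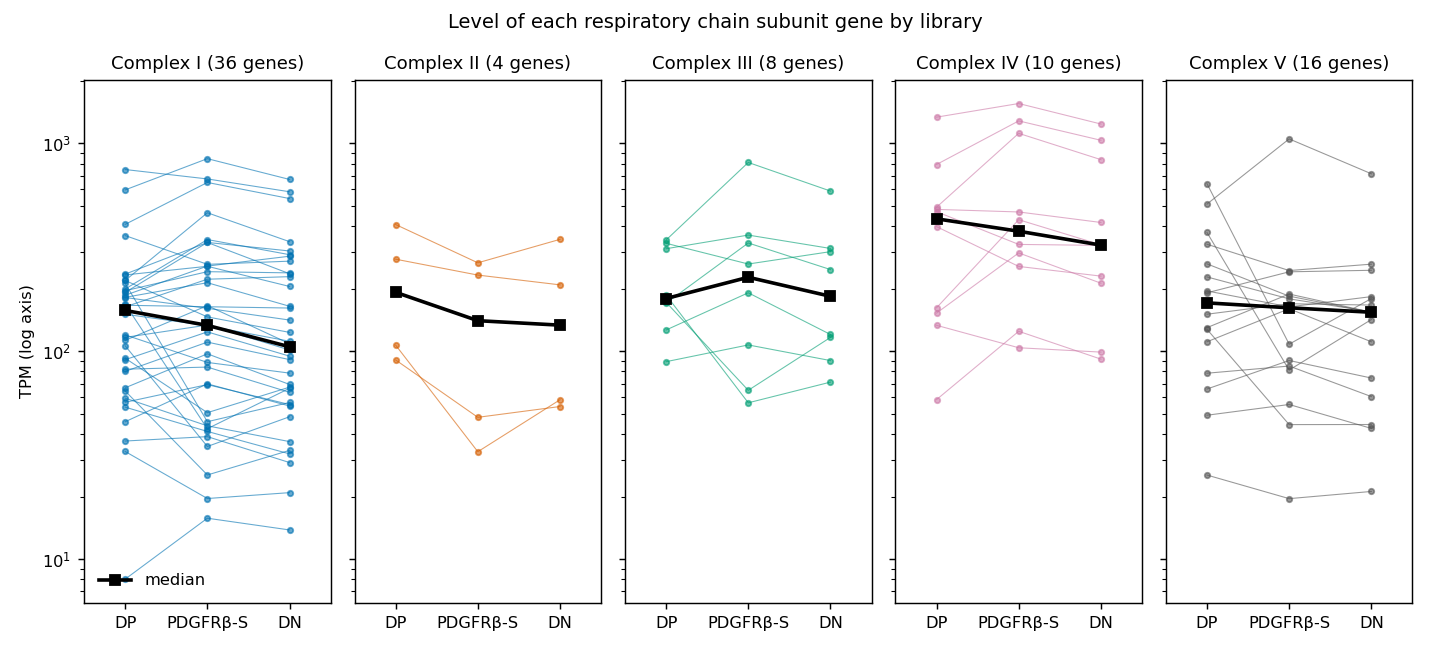
TPM on a log axis of the 74 members that met the 10 TPM minimum, in DP, PDGFRβ-S and DN, by complex, with thin lines joining the values of a gene and black squares marking the median of the complex. In complex IV the lines fan out, with Cox4i1 highest in DP and Cox7b, Cox7c and Cox6c highest in PDGFRβ-S, and in complex V Atp5b has 640 TPM in DP against 108 TPM in PDGFRβ-S.

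Because the deposited TPM divide by the summed length of all annotated exon variants, they understate genes with many variants when genes are compared with each other, and levels between genes are given here as reads per kilobase of principal transcript per 1000000 nuclear protein-coding reads. On this scale Atp5b, which encodes the catalytic β subunit of the F1 head, had a level of 1185 in DP, against 284 in PDGFRβ-S and 399 in DN. Ndufa4 had 494 in DP, against 1480 in PDGFRβ-S and 910 in DN, and Uqcrb, a small complex III protein, had 361, 1209 and 746 in these libraries. The order of the most abundant members therefore turned between the libraries: Atp5b stood above Ndufa4 and Uqcrb in DP and below both in PDGFRβ-S and in DN.

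In DP against DN, 7 of 74 members were at least 2-fold higher, where 18.5% of all tested genes were, and 1 was at least 2-fold lower, where 9.41% were. Among the 7 were Ndufa9 and Ndufa10 of complex I, Uqcrc1 of complex III, and Atp5a1, Atp5b and Atp5d of complex V. The single lower member was Cox7b, whose log2 ratio of -1.002 sits at the limit. The higher count was 6 after rescaling and 5, 3 and 4 after centring on coding length, transcript length and GC content of other genes, and the lower count was 4 after rescaling and 0, 2 and 4 after these centrings. The shares of all genes were not counted on these scales, so these counts are not read as a result about the members. At 1.5-fold the counts were 17 higher, against 31.6% of all genes, and 8 lower, against 20.1%. The median log2 ratio was 0.16 over the members and 0.15 over all genes. Both medians depend on the scaling: scaling each library to its nuclear protein-coding genes shifts every ratio of DP to DN by -0.29, and the median of the members then becomes -0.13 beside -0.13 for all genes. A ratio of DP to DN between 0 and 0.29 therefore turns below 0 after rescaling, which happened for 15 of the 74 members and holds for such values below.

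In PDGFRβ-S against DN, 0 of 74 members were at least 2-fold higher, where 0.654% of all genes were, and 0 were at least 2-fold lower, where 5.72% were. The members as a set nevertheless leaned the other way from the rest of the genes: 52 of 74 had a ratio above 0, against 1510 of 5963 genes (25.3%), and the medians were 0.23 and -0.27. The lean lay in members with under 600 coding bases, 47 of 53 above 0, against 581 of 1206 other genes of that length. Of the 21 longer members, 5 were above 0, against 866 of 4658 other genes of that length. Rescaling shifts these ratios by 0.09, with 56 of 74 members above 0, against 32.1% of all genes. At 1.5-fold, Ndufa5 and Uqcr10 were higher, against 2.25% of all genes, and Atp5a1, Atp5b, Ndufa9, Sdha and Uqcrc2 were lower, against 22.7%.

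In DP against PDGFRβ-S, 10 of 74 members were at least 2-fold higher, where 29.0% of all genes were, and 6 were at least 2-fold lower, where 5.79% were. The lower count was 13 after rescaling and 2, 3 and 29 after centring on coding length, transcript length and GC content, and the higher count was 9 after rescaling and 5, 6 and 6 after these centrings. Here too the shares of all genes on these scales were not counted, and the percentages above belong to the unscaled values. The 10 were the 7 that were higher in DP than in DN, with Ndufv1, Sdha and Uqcrc2. The 6 were Atp5l, Cox6c, Cox7a2, Cox7b, Ndufa4 and Uqcrb. The medians were -0.13 over the members and 0.40 over all genes, and rescaling shifts these ratios by -0.38. At 1.5-fold, 15 members were higher, against 43.1% of all genes, and 15 were lower, against 14.7%. The 3 comparisons share libraries, so their counts are not separate observations.

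**Figure D2:**
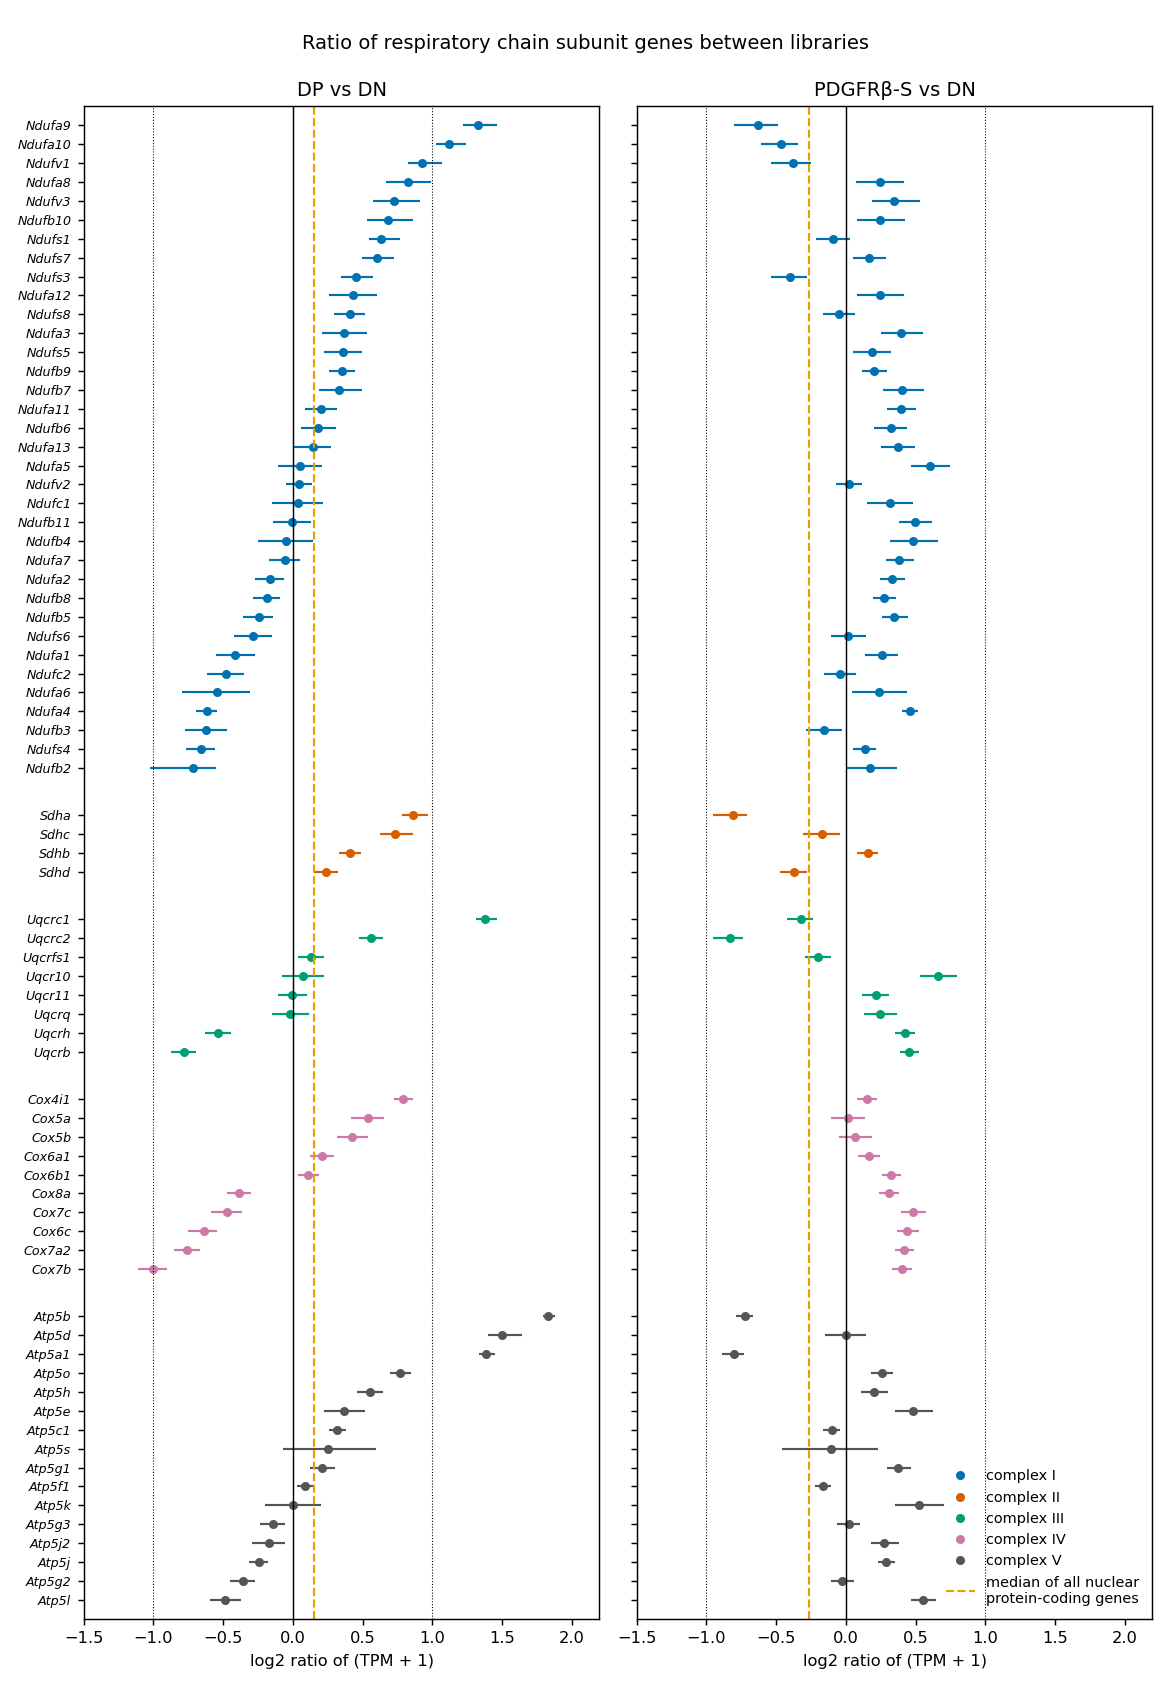
Log2 ratio of (TPM + 1) of 73 of the 74 members in DP vs DN (left) and PDGFRβ-S vs DN (right), sorted within each complex by the left panel, with bars for the 95% counting interval of the TPM ratio, dotted lines at 2-fold and a dashed line at the median of all nuclear protein-coding genes. In the left panel Atp5b lies at 1.83 and Cox7b at -1.002, and in the right panel no member passes a dotted line.

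Each member was also placed by the order of its unscaled TPM in the 3 libraries. Rescaling changes the sign of the ratio of DP to DN for 15 members, of DP to PDGFRβ-S for 11 and of PDGFRβ-S to DN for 4. The orders were not counted again after rescaling. In 25 members PDGFRβ-S was highest and DP lowest, an order found in 10.7% of all tested genes, and in 19 members DP was highest and PDGFRβ-S lowest, an order found in 42.3%. DP was highest and DN lowest in 15 members, against 11.4%, and PDGFRβ-S was highest and DN lowest in 12, against 3.19%. DN was highest in 3 members, with DP lowest in each, although 20.8% of all genes had that order, and in 0 members was DN highest and PDGFRβ-S lowest, although 11.5% of all genes were.

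Complex I held both directions. Its catalytic core, the subunits kept from bacteria, among them those that carry the flavin and the iron-sulphur clusters, comprised 7 nuclear genes. All 7 had a ratio of DP to DN above 0, against 57.0% of all tested genes, with a median log2 ratio of 0.60. After rescaling, Ndufv2, with 167 TPM in DP, 164 TPM in PDGFRβ-S and 161 TPM in DN, was below even. Ndufv1, the subunit that binds NADH and the flavin, had 64.5 TPM in DP, 25.4 TPM in PDGFRβ-S and 33.4 TPM in DN, which is 1.93-fold higher in DP than in DN (95% counting interval 1.78 to 2.10) and 2.53-fold higher in DP than in PDGFRβ-S (2.31 to 2.78). Ndufs3 had 92.6 TPM in DP, 50.7 TPM in PDGFRβ-S and 67.3 TPM in DN, again with DP highest.

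The 29 accessory members of complex I had a median log2 ratio of DP to DN of 0.04, from -0.72 to 1.33, with 15 above 0. Ndufa9 and Ndufa10, the accessory subunits with the longest coding sequences but for Ndufv3, were the accessory members with the highest ratios. Ndufa10 had 106 TPM in DP, 34.9 TPM in PDGFRβ-S and 48.5 TPM in DN, and it was 2.19-fold higher in DP than in DN (2.04 to 2.36), or 1.80-fold after rescaling, which is under the 2-fold limit. Ndufa9 had 169 TPM in DP, 42.5 TPM in PDGFRβ-S and 66.4 TPM in DN. Ndufa9 is overlapped on the opposite strand by the antisense gene Gm42574, which read 161 TPM in DP, 42.5 TPM in PDGFRβ-S and 45.9 TPM in DN, and without strand the reads of this pair cannot be told apart. In all, 21 of the 74 members overlap another gene with a mean of at least 1 TPM, 19 of them one on the opposite strand.

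The lowest ratios of complex I were those of Ndufb2, Ndufs4, Ndufb3 and Ndufa4. Ndufb2 had 8.03 TPM in DP, 15.8 TPM in PDGFRβ-S and 13.8 TPM in DN, from 221, 517 and 485 reads. It is overlapped on the opposite strand by the antisense gene Gm16272, with 29.3 TPM in DP, 30.2 TPM in PDGFRβ-S and 17.8 TPM in DN. Braf also overlaps it there, and without strand these reads cannot be told apart. Ndufs4, an accessory subunit whose human gene is mutated in Leigh syndrome, had 192 TPM in DP, 334 TPM in PDGFRβ-S and 304 TPM in DN, and it was 1.58-fold lower in DP than in DN (1.47 to 1.70). Ndufa4 had 219 TPM in DP, 464 TPM in PDGFRβ-S and 337 TPM in DN, and was 2.12-fold lower in DP than in PDGFRβ-S (2.02 to 2.22). The members with the highest mean TPM, Ndufa2 with 597 TPM in DP, 844 TPM in PDGFRβ-S and 670 TPM in DN, and Ndufb9 with 748 TPM, 674 TPM and 585 TPM, differed by less than 1.5-fold between any pair of libraries. Ndufa5, which is one of the accessory subunits of the matrix arm, had 113 TPM in DP, 166 TPM in PDGFRβ-S and 109 TPM in DN, so that PDGFRβ-S was 1.53-fold higher than DN (1.39 to 1.68).

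Complex II, which is also an enzyme of the TCA cycle, is encoded by nuclear genes alone. Its 4 genes had ratios of DP to DN above 0, against 57.0% of all tested genes. Their median log2 ratio was 0.57, and none reached 2-fold. Sdha, the flavoprotein that oxidizes succinate, had 107 TPM in DP, 32.9 TPM in PDGFRβ-S and 58.5 TPM in DN, which is 1.83-fold higher in DP than in DN (1.72 to 1.95) and 3.26-fold higher in DP than in PDGFRβ-S (3.01 to 3.53). Sdhb, the iron-sulphur protein, had 277 TPM in DP, 233 TPM in PDGFRβ-S and 209 TPM in DN. Its membrane anchors were Sdhc, with 90.9 TPM in DP, 48.2 TPM in PDGFRβ-S and 54.3 TPM in DN, and Sdhd, with 407 TPM, 266 TPM and 345 TPM. After rescaling, Sdhd was at 0.964 times its DN level in DP, so the direction of this gene depends on the scaling. In PDGFRβ-S against DN the median of complex II was -0.27, with Sdhb alone above 0.

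In complex III the core and the small subunits differed before centring on length. The core proteins Uqcrc1 and Uqcrc2 and the Rieske iron-sulphur protein Uqcrfs1 had a median log2 ratio of DP to DN of 0.56. The 5 small subunits had one of -0.02. Centred on coding length, these medians were 0.07 and 0.22, the other way round. Uqcrc1 (ENSMUSG00000025651, mm10 chr9:108936633-108949623) had 187 TPM in DP, 56.5 TPM in PDGFRβ-S and 71.1 TPM in DN, and was 2.62-fold higher in DP than in DN (2.49 to 2.76). Uqcrc2 had 172 TPM in DP, 64.9 TPM in PDGFRβ-S and 116.6 TPM in DN, and its highest contrast was DP over PDGFRβ-S at 2.65-fold (2.46 to 2.85). Uqcrfs1 was nearly level, with 331 TPM in DP, 263 TPM in PDGFRβ-S and 301 TPM in DN. Among the small subunits, Uqcrb had 343 TPM in DP, 809 TPM in PDGFRβ-S and 590 TPM in DN, and was 2.36-fold lower in DP than in PDGFRβ-S (2.22 to 2.51). Uqcrh, the hinge protein that faces cytochrome c1, had 170 TPM in DP, 332 TPM in PDGFRβ-S and 247 TPM in DN. Uqcr10 had 127 TPM in DP, 191 TPM in PDGFRβ-S and 120 TPM in DN, and Uqcr11 had 311 TPM, 362 TPM and 312 TPM. All 5 small subunits were above 0 in PDGFRβ-S against DN, with a median log2 ratio of 0.42. Of 1206 other genes with under 600 coding bases, 581 were above 0. The core and Rieske genes were all below 0, with a median of -0.33. Of 4658 other genes with 600 or more coding bases, 3791 were below 0, also with a median of -0.33.

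The catalytic subunits of complex IV are encoded in the mitochondrial genome, and its nuclear subunits surround them. Of the 10 members that met the minimum, 5 had a ratio of DP to DN above 0 and 5 below, with a median of -0.14. All 10 were above 0 in PDGFRβ-S against DN, from 0.02 to 0.48, against 25.3% of all tested genes and 581 of 1206 other genes with under 600 coding bases. Cox4i1, the regulatory subunit that binds ATP, was the highest of them in DP against DN, with 398 TPM in DP, 256 TPM in PDGFRβ-S and 230 TPM in DN, or 1.73-fold (1.65 to 1.81). Cox5a followed with 469 TPM in DP, 327 TPM in PDGFRβ-S and 323 TPM in DN, although the lincRNA gene Gm26631, which overlaps it on the opposite strand, read 123 TPM, 92.3 TPM and 104 TPM in these libraries. At the other end, Cox7b (ENSMUSG00000031231, chrX:106015700-106022450) had 162 TPM in DP, 429 TPM in PDGFRβ-S and 325 TPM in DN, which is 2.01-fold lower in DP than in DN (1.87 to 2.16) and 2.65-fold lower in DP than in PDGFRβ-S (2.48 to 2.84). Cox7a2 had 493 TPM in DP, 1117 TPM in PDGFRβ-S and 835 TPM in DN, and Cox7c had 153 TPM, 297 TPM and 213 TPM. These small subunits were highest in PDGFRβ-S and lowest in DP. Cox6b1 and Cox8a, the members with the highest mean TPM of the complex, had 1336 and 791 TPM in DP, 1554 and 1282 TPM in PDGFRβ-S, and 1239 and 1035 TPM in DN.

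Complex IV also holds the subunits with isoforms. In every pair or set the widely expressed gene carried nearly all of the signal in all 3 libraries. Cox4i2, the isoform known from lung and from cells that sense oxygen, had 6.89 TPM in DP, 4.10 TPM in PDGFRβ-S and 6.28 TPM in DN, from 31, 22 and 36 reads. Cox6b2, known from testis, had 3.50 TPM in DP, 7.96 TPM in PDGFRβ-S and 4.85 TPM in DN, far under the values of Cox6b1 given above. Cox6a1 had 481 TPM in DP, 468 TPM in PDGFRβ-S and 416 TPM in DN. Its heart and skeletal muscle isoform Cox6a2 read 0 in DP and in PDGFRβ-S, which allows up to 1.14 TPM in DP and 0.957 TPM in PDGFRβ-S at 3 reads, and it read 4.78 TPM in DN from 16 reads. Among the skeletal muscle markers, Myog was likewise at 0 in DP and in PDGFRβ-S and at 38.0 TPM in DN, while Actc1 had 1988 TPM in DP, against 13.1 TPM in PDGFRβ-S and 268 TPM in the DN library. The part of muscle cells in the Cox6a2 reads was not tested. Cox7a1, the other muscle isoform, came from 4 reads (DP), 1 read (PDGFRβ-S) and 4 reads (DN). Cox7b2, Cox8b and Cox8c had 0 reads in every library, which allows at most 2.15 TPM, the limit of Cox8b in DP.

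Complex V showed the widest split. The F1 head is counted here with the central stalk subunits γ, δ and ε, and the stalk and membrane part holds the peripheral stalk only. The 5 genes of the F1 head had a median log2 ratio of DP to DN of 1.38. The 10 genes of the peripheral stalk and membrane part had one of -0.07. Atp5b (ENSMUSG00000025393, chr10:128083273-128090391) had 640 TPM in DP, 108 TPM in PDGFRβ-S and 179 TPM in DN, from 17132, 3452 and 6112 reads. It was 3.57-fold higher in DP than in DN (3.47 to 3.67) and 5.91-fold higher in DP than in PDGFRβ-S (5.70 to 6.14). Atp5a1, the α subunit that alternates with β around the head, had 373 TPM in DP, 81.2 TPM in PDGFRβ-S and 142 TPM in DN, which is 2.62-fold higher in DP than in DN (2.52 to 2.73). Atp5d, the δ subunit of the central stalk, had 128 TPM in DP, 44.4 TPM in PDGFRβ-S and 44.5 TPM in DN, or 2.87-fold (2.64 to 3.13). The remaining head subunits were nearer to even: γ, encoded by Atp5c1, had 327 TPM in DP, 245 TPM in PDGFRβ-S and 262 TPM in DN, and ε, encoded by Atp5e, had 78.5 TPM, 84.9 TPM and 60.6 TPM. In PDGFRβ-S against DN, Atp5a1 and Atp5b were 1.75-fold lower (1.66 to 1.85) and 1.66-fold lower (1.59 to 1.73), and Atp5d was even at 0.999 (0.902 to 1.11). The head subunits, which assemble in fixed proportion as proteins, thus did not hold a fixed ratio of mRNA between libraries.

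In the membrane part, Atp5l, the g subunit, had 510 TPM in DP, 1050 TPM in PDGFRβ-S and 714 TPM in DN, and was 2.06-fold lower in DP than in PDGFRβ-S (1.91 to 2.22). The ring that turns in the proton flow is built of c subunits, whose identical mature protein is encoded by Atp5g1, Atp5g2 and Atp5g3. Atp5g1 had 49.3 TPM in DP, 55.5 TPM in PDGFRβ-S and 42.6 TPM in DN, Atp5g2 had 191 TPM, 241 TPM and 245 TPM, and Atp5g3 had 151 TPM, 169 TPM and 167 TPM. All 3 stayed within 1.5-fold between any pair of libraries, and reads shared by these close relatives could have been assigned to any of them. Atp5o, in the peripheral stalk, had the highest ratio of DP to DN outside the head at 0.77. Atp5k was even between DP and DN at 111 TPM each, with 160 TPM in PDGFRβ-S. Atp5sl was under the 10 TPM minimum, with 12.5 TPM in DP, 2.34 TPM in PDGFRβ-S and 2.53 TPM in DN.

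**Figure D3:**
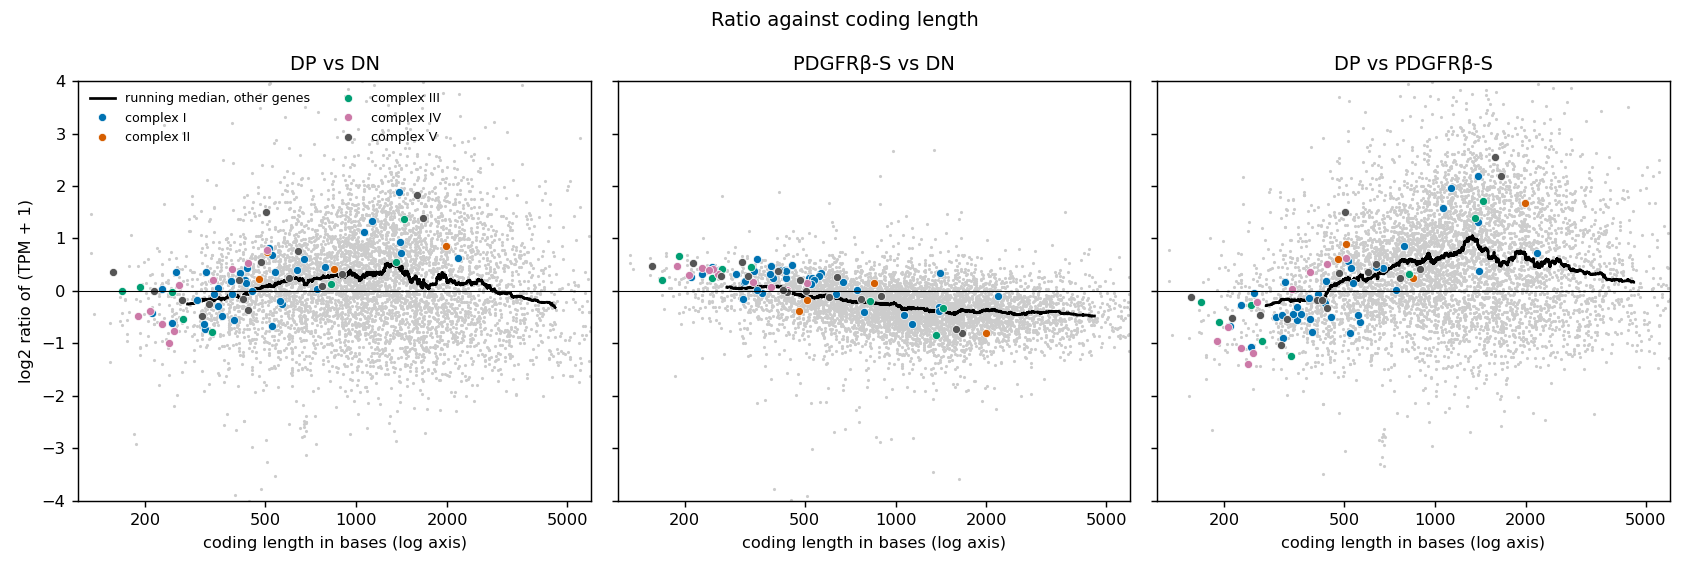
Log2 ratio of (TPM + 1) against coding length on a log axis, for members coloured by complex and other nuclear protein-coding genes in grey with their running median, in DP vs DN, PDGFRβ-S vs DN and DP vs PDGFRβ-S. Members run upward with coding length in the left and right panels (Pearson r of 0.70 and 0.80) and downward in the middle panel (r of -0.76).

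The ratio of a member varied with the length of its coding sequence. All 21 members with 600 or more coding bases had a ratio of DP to DN above 0, with a median of 0.63. Of 4658 other genes of that length, 2764 were above 0, with a median of 0.22. After rescaling, the long members Ndufv2, Uqcrfs1, Atp5f1 and Atp5s were below even. The 53 shorter members, 25 above 0 and 28 below, had a median of -0.01. The 1206 other genes of that length, 576 above 0 and 630 below, had one of -0.04. In PDGFRβ-S against DN the medians were -0.20 for long members, -0.33 for other long genes, 0.29 for short members and -0.02 for other short genes. In DP against PDGFRβ-S they were 0.72, 0.55, -0.33 and -0.04 in the same order. Over the 74 members, Pearson's r between log2 ratio and log2 coding length was 0.70 in DP against DN (Spearman 0.68), -0.76 in PDGFRβ-S against DN (-0.71) and 0.80 in DP against PDGFRβ-S (0.77). Over 5864 other genes it was 0.05, -0.23 and 0.16. These correlations are across genes that share the same libraries and depth, and genes are not independent replicates. Within complex IV, where the 10 coding lengths are all under 600 bases, r was 0.86 in DP against DN. It was 0.70 within complex I, 0.70 within complex III and 0.65 within complex V. With transcript length in place of coding length, r over the members was 0.42, -0.59 and 0.53 in the same order of comparisons. Within complex IV it was then -0.09 in DP against DN.

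Length and role go together in these complexes, since the catalytic and core proteins are the long ones. Atp5d, a head subunit with 504 coding bases, was among the highest members. Atp5f1, a peripheral stalk subunit with 768 coding bases, was nearly even with 195 TPM in DP, 164 TPM in PDGFRβ-S and 183 TPM in DN. By contrast, Atp5e, a head subunit with 156 coding bases, had a log2 ratio of DP to DN of 0.37. Long accessory subunits Ndufa9 and Ndufa10 were at 1.33 and 1.12. Ndufv2 of the complex I core and Uqcrfs1, with 744 and 822 coding bases, were nearly even at 0.04 and 0.13. These genes were chosen after their values were seen, and the separate parts of length and role were not tested. Base composition moved with the ratios as well: r with GC content of the transcript was 0.34 over the members and 0.40 over other genes in DP against DN. After subtraction of the median of the 300 genes nearest in coding length, the median in DP against DN was 1.31 for the F1 head, 0.40 for the complex I core, 0.07 for the complex III core and Rieske genes and 0.22 for the complex III small subunits, so that the order of the complex III groups turned round. Centred on transcript length, the medians were 0.95, 0.25, 0.09 and -0.37 for these groups, and centred on GC content they were 0.72, 0.21, 0.62 and -0.62. The stalk and membrane part of complex V stayed below the F1 head in each case, at 0.0040, -0.16 and -0.45 for coding length, transcript length and GC content.

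**Figure D4:**
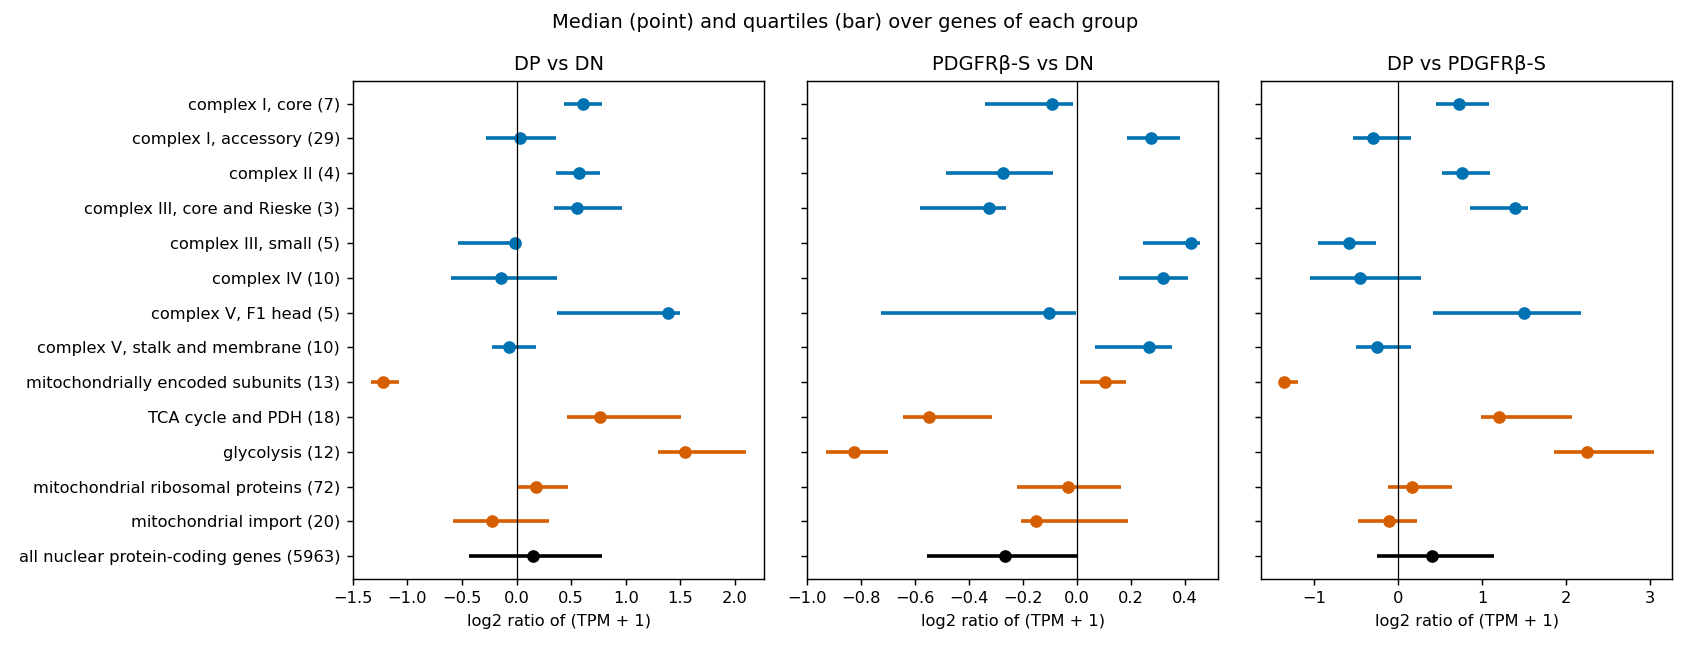
Median (points) and quartiles (bars) of the log2 ratio over the genes of each group in DP vs DN, PDGFRβ-S vs DN and DP vs PDGFRβ-S, with member groups in blue, other pathways in orange, all nuclear protein-coding genes in black and the number of genes in brackets. The F1 head lies at 1.38 in DP vs DN and the stalk and membrane part at -0.07, and the mitochondrially encoded subunits lie at -1.22.

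The 13 subunits encoded in the mitochondrial genome went the other way from the nuclear core subunits. All 13 had a ratio of DP to DN below 0, 12 of them at least 2-fold lower, against 9.41% of the nuclear genes tested, with a median of -1.22, while their median in PDGFRβ-S against DN was 0.10. mt-Nd3 had 577 TPM in DP, 1988 TPM in PDGFRβ-S and 1597 TPM in DN, and mt-Co1, the catalytic subunit of complex IV, had 5836 TPM, 7178 TPM and 9182 TPM. In DP the ratio of mitochondrially encoded to nuclear-encoded subunit mRNA was therefore lower than in the other libraries. Since mitochondrial transcripts take up 25.5% of the TPM in PDGFRβ-S and 24.4% in DN, their level also sets the scale of every nuclear TPM, which the rescaled values remove.

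Enzymes that feed the chain were counted next. All 18 genes of the TCA cycle and pyruvate dehydrogenase were above 0 in DP against DN, against 57.0% of all tested genes, with a median of 0.77 and with 7 at least 2-fold higher, against 18.5%. Idh2, which oxidizes isocitrate in mitochondria, had 261 TPM in DP, against 57.6 TPM in PDGFRβ-S and 55.9 TPM in DN. Sucla2 and Pdhb were the lowest, at 0.28 and 0.38. Of 18 glycolysis genes, 12 met the 10 TPM minimum, and these were all above 0 as well, with a median of 1.55. Of these 12, 9 were at least 2-fold higher, against 18.5% of all tested genes. Slc2a1 at 2.81 and Pkm at 2.58 were on the high side and Pgk1 at 0.22 and Pgam1 at 0.40 on the low side. Of the 6 under the minimum, Hk2 (-1.24) and Pdk1 (-1.17) were below 0. In PDGFRβ-S against DN the medians were -0.55 for the TCA cycle list and -0.82 for glycolysis, beside 0.23 for the nuclear-encoded subunits. The genes of these 2 lists are longer, and subunits with 600 or more coding bases had a median of -0.20. Centred on coding length, the medians were -0.17 for the TCA cycle list, -0.50 for glycolysis and 0.23 for the subunits.

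Factors that build the chain did not share one direction. The 13 expressed complex I assembly factors had a median of 0.19 in DP against DN, from Timmdc1 at -1.13 and Nubpl at -0.80 to Tmem186 at 0.77 and Ecsit at 2.12. The 23 expressed factors for complexes II to V had a median of -0.06, from Cox20 at -1.60 and Sco1 at -1.22 to Taco1 at 0.93 and Bcs1l at 1.30. Mitochondrial ribosomal proteins (72 genes) had a median of 0.18 and import components (20 genes) one of -0.23, with Timm8a1 at -0.82, Timm8b at -0.77, Timm50 at 1.39 and Tomm40 at 1.99. Of 20 regulators of mitochondrial biogenesis, 7 had a mean of at least 10 TPM, with a median of -0.18, and Yy1, at 12.4 TPM in DP, 24.6 TPM in PDGFRβ-S and 30.2 TPM in DN, was the single one at least 2-fold lower in DP. Tfam, which packages mitochondrial DNA and is a factor for its transcription, had 32.4 TPM in DP, 37.6 TPM in PDGFRβ-S and 33.6 TPM in DN. Of the 9 expressed carriers and subunits outside the name pattern, Cyc1, the cytochrome c1 of complex III, had 503 TPM in DP, 229 TPM in PDGFRβ-S and 284 TPM in DN, and Usmg5, a small ATP synthase subunit, had 788 TPM, 1834 TPM and 1159 TPM.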

How the data were processed

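Bulk RNA-seq of 3 sorted AGM populations, with 1 library each, was used. Lysates of sorted cells went into full-length cDNA by a Smart-seq2-type protocol without strand information or molecular identifiers, and fragments were sequenced as short single reads. The authors deposited TPM per Ensembl gene, and TopHat2 2.0.10 and mm10 are named in the submitters' processing notes. For RNA-seq the study's methods name both Cufflinks, for TPM of RefSeq transcripts, and summarizeOverlaps, for reads counted over GENCODE genes. The Ensembl identifiers of the table and the lengths recovered below do not match the Cufflinks route, so how its TPM were computed is uncertain. A sheet with 4 columns for a pair of genes was not used.

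TPM multiplied by the summed length of all distinct annotated exons (GENCODE M21) gave whole multiples of a constant specific to the library, within 0.002 reads, for 61.9% of 6592 expressed nuclear protein-coding genes, against 8.01% with the merged exon length and 0% with constants raised by 3%. Allowing other lengths, 99.95% gave whole reads. Of the members, 79 had reads, 53 of them at the annotated length and 26 at an inferred one. Recovered reads served depth, levels per kilobase of the principal transcript and exact intervals (Poisson for levels, binomial for ratios, both at 95%). PCR copies count as separate reads, so intervals and the 3-read limit cover counting error only.

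Ratios are log2((TPM + 1)/(TPM + 1)), which understates changes of low genes, for genes with a mean of at least 10 TPM over the 3 libraries. Calls are 2-fold, with 1.5-fold as a second limit. The procedure was tested on simulated data. With 1 library per population no test was possible. Members, gene lists and comparisons were chosen with earlier results of these data known. Named members are those with the 2 highest mean TPM per complex, the 2 highest and 2 lowest ratios per complex and comparison, all isoforms, all of complex II and those under 1 TPM, and others named were chosen after their values were seen. For other lists, the 2 highest and 2 lowest ratios of DP to DN at a mean of at least 10 TPM were taken. Cyc1, Hk2 and Pdk1 were named outside this rule. Some genes that these rules name are not reported here, although they enter the counts and medians. Gene coordinates are mm10 positions copied from the table, and promoter windows are from RefSeq (GRCm38.p6). Alternatives were pseudocounts of 0.1 and 5 TPM, no minimum, scaling to nuclear protein-coding genes and centring on genes of similar transcript length. Centring on coding length and on GC content was added after seeing the data. Analyses used Python 3.11.15, numpy 2.4.6, pandas 2.3.3 and scipy 1.17.1.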

Additional observations from a re-analysis of the deposited data

How the results depend on the processing

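With a pseudocount of 0.1 TPM all 9 medians and counts stayed as reported, and with 5 TPM the one change was that 0 members, in place of 1, passed the 2-fold limit downward in DP relative to DN. Without the 10 TPM minimum the medians were 0.12 (DP against DN), 0.20 (PDGFRβ-S against DN) and -0.016 (DP against PDGFRβ-S), with 2 members at least 2-fold lower in DP and 2 in PDGFRβ-S, both relative to DN. Scaling to nuclear protein-coding genes reversed the median of DP against DN to -0.13, moved the others to 0.32 and -0.51, and gave 4 members at least 2-fold lower in DP relative to DN and 13 relative to PDGFRβ-S. Centring on transcript length gave medians of 0.13, 0.14 and -0.10 in the same order of comparisons, with 3 members higher and 2 lower in DP than in DN and 6 higher and 3 lower in DP than in PDGFRβ-S. The shortest members have few genes as short as themselves, which limits this centring. Centring on coding length gave medians of 0.21, 0.23 and -0.024, with 0 members at least 2-fold lower in DP relative to DN and 5 higher and 2 lower in DP than in PDGFRβ-S. Centring on GC content reversed the median of DP against DN to -0.23 and moved the others to 0.48 and -0.70, with 4 members higher and 4 lower in DP than in DN and 6 higher and 29 lower in DP than in PDGFRβ-S. Shares of all genes past 2-fold were not counted under these alternatives, so their counts of members have no background beside them. The cause of these changes was not tested.

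No paired analysis was possible because each population has 1 library. Variation between embryos, litters and sorts is not measured, and each ratio describes a pair of libraries.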
